A study of Mus musculus with 16 samples.

Results

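The 9 nuclear genes followed here keep, copy or transcribe mitochondrial DNA (mtDNA), or act on the RNA made from it. They were read in mouse kidney after tubular inactivation of the coactivator PGC-1α, on chow and on high fat diet (HFD). The genes were taken from a list by symbol, each through probe sets annotated to that symbol alone, and all 9 of the 9 were among the 22180 genes measured. They were Tfam, Tfb1m, Tfb2m, Polrmt, Polg, Polg2, Ssbp1, Top1mt and Lrpprc. Of these, only Lrpprc, whose protein stabilises mitochondrial mRNAs, passed the test across all genes, 1.12-fold lower in NiPKO kidney averaged over both diets. In that average 2.68% of all genes passed, and leaving out any 1 of several samples put Lrpprc just over the threshold. No member passed in any comparison of a single pair of groups.

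Whole kidneys of male mice were compared on 16 Affymetrix arrays, 4 a group, between chow-fed NiPKO, chow-fed control, HFD-fed NiPKO and HFD-fed control mice. NiPKO mice carried 2 floxed PGC-1α alleles together with the Pax8-rtTA and (tetO-cre)-LC1 transgenes, so that doxycycline (DOX) induces recombination in cells with an active Pax8 promoter, which within the kidney are the tubules and not the glomeruli. Mice 12 weeks old drank water with 0.2 mg/ml DOX over 2 weeks, and the diets, with 10 kcal% fat for chow and 60 kcal% fat for HFD, were fed afterwards for 20 weeks according to the design text. Littermates served as controls because both transgenes came from a mixed background, and which of the alleles those littermates carried is not stated in the sources used. Whole kidney also holds glomeruli, vessels and immune cells that the transgenes do not target, and in bulk RNA fewer cells of one type and less RNA per cell cannot be told apart. Every sample is labelled a biological replicate, though no label names its animal, and p-values set a group difference against the spread of these samples within groups.

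Mitochondria hold a small circular genome that encodes a few subunits of the respiratory chain together with the ribosomal and transfer RNAs needed to make them, and everything that copies or reads this genome is imported from the cytosol. TFAM packages the DNA into nucleoids and bends the promoters, TFB2M helps the single-subunit RNA polymerase POLRMT to open them, and LRPPRC keeps the resulting mRNAs stable, while POLG with its accessory subunit POLG2, the strand-binding protein SSBP1 and the topoisomerase TOP1MT serve replication and topology. Tubule cells depend on this system because their transport work is paid for by oxidative phosphorylation, and PGC-1α is known to raise nuclear genes of mitochondria through partner factors such as NRF1, GABPA and the estrogen-related receptors (ERR).

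The promoter windows of the transcription apparatus and of Lrpprc are shown because the partner factors of PGC-1α bind short motifs close to gene starts. Each window runs from 250 bases before to 50 bases after the annotated gene start, in RefSeq on build GRCm38.p6, 5′ to 3′ on the strand of the gene. A table of such windows held 8 of the 9 genes, all but Top1mt. Capitals mark exact matches, on either strand, to 4 short motifs, GCATGCGC for the core of the NRF1 site, CCGGAAG for the ETS core bound by GABPA, AAGGTCA for the ERR site and AANATGGC for YY1. No matches overlapped one another. Tfam lies at chr10:71237995-71238294 on the minus strand, Polrmt at chr10:79746532-79746831 on the minus strand, Tfb2m at chr1:179546227-179546526 on the minus strand and Lrpprc at chr17:84790737-84791036 on the minus strand.
Tfam: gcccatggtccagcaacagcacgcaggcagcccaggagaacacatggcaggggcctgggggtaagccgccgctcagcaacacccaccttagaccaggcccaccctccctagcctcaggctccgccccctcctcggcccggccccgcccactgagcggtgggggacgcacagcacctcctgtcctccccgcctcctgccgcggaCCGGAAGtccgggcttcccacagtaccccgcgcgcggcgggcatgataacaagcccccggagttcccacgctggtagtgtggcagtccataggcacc
Polrmt: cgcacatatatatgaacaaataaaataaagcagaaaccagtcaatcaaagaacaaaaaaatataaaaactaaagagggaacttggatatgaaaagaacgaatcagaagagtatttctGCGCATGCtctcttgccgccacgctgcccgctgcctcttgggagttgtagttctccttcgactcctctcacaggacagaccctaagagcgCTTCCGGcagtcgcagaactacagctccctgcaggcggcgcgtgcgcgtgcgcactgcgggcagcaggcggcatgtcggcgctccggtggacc
Tfb2m: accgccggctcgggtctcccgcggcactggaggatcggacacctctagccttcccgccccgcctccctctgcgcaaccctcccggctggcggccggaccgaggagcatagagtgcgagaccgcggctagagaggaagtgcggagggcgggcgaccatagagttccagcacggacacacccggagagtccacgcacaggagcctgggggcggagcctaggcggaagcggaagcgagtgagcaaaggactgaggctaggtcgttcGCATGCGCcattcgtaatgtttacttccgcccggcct
Lrpprc: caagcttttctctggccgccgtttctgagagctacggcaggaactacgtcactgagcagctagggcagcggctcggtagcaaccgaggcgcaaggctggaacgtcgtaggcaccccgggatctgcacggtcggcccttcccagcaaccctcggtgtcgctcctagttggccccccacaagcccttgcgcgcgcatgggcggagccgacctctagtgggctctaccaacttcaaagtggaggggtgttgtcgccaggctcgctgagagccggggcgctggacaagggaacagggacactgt
The ETS core was present in 5 of the 8 windows, those of Tfam, Polg, Polg2, Polrmt and Ssbp1, and in 8.86% of the 32851 windows of the table. Its first base lay 47 bases before the gene start in Tfam and Ssbp1, 43 in Polrmt, 38 in Polg and 29 in Polg2. The NRF1 core was found in the windows of Polrmt, 133 bases before the start, and Tfb2m, 14 bases after it, and in 2.71% of all windows. Neither the ERR site, held by 4.72% of all windows, nor the YY1 motif, held by 6.05%, had an exact match in the 8 windows, and the Lrpprc window held none of the 4 motifs. Such matches describe letters in a window and not binding.

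Array medians lay between 5.35 and 5.4, and any pair of arrays had a correlation across probe sets between 0.9863 and 0.9917, so no array stood apart. The values are log2 expression as deposited, and differences between groups are given as log2 fold changes of the first named over the second, with the standard error (SE) and the 95% interval from limma. Ppargc1a, the gene for PGC-1α, was read by probe set 17448001 at 9.91, 10.18, 10.05 and 10.09 in chow-fed NiPKO and 9.68, 9.59, 9.56 and 9.6 in chow-fed control kidney, and at 9.96, 9.96, 10.07 and 9.96 in HFD-fed NiPKO and 9.57, 9.52, 9.45 and 9.32 in HFD-fed control kidney. Its signal was thus higher in NiPKO samples on both diets, with a log2 fold change of 0.45 on chow and 0.52 on HFD (adjusted p = 0.0026 and 0.0013 from limma). The exons that this probe set covers were not analysed here. If they lie outside the floxed part of the gene the signal is no check of the genotypes, which are used below as the labels give them.

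**Figure D1:**
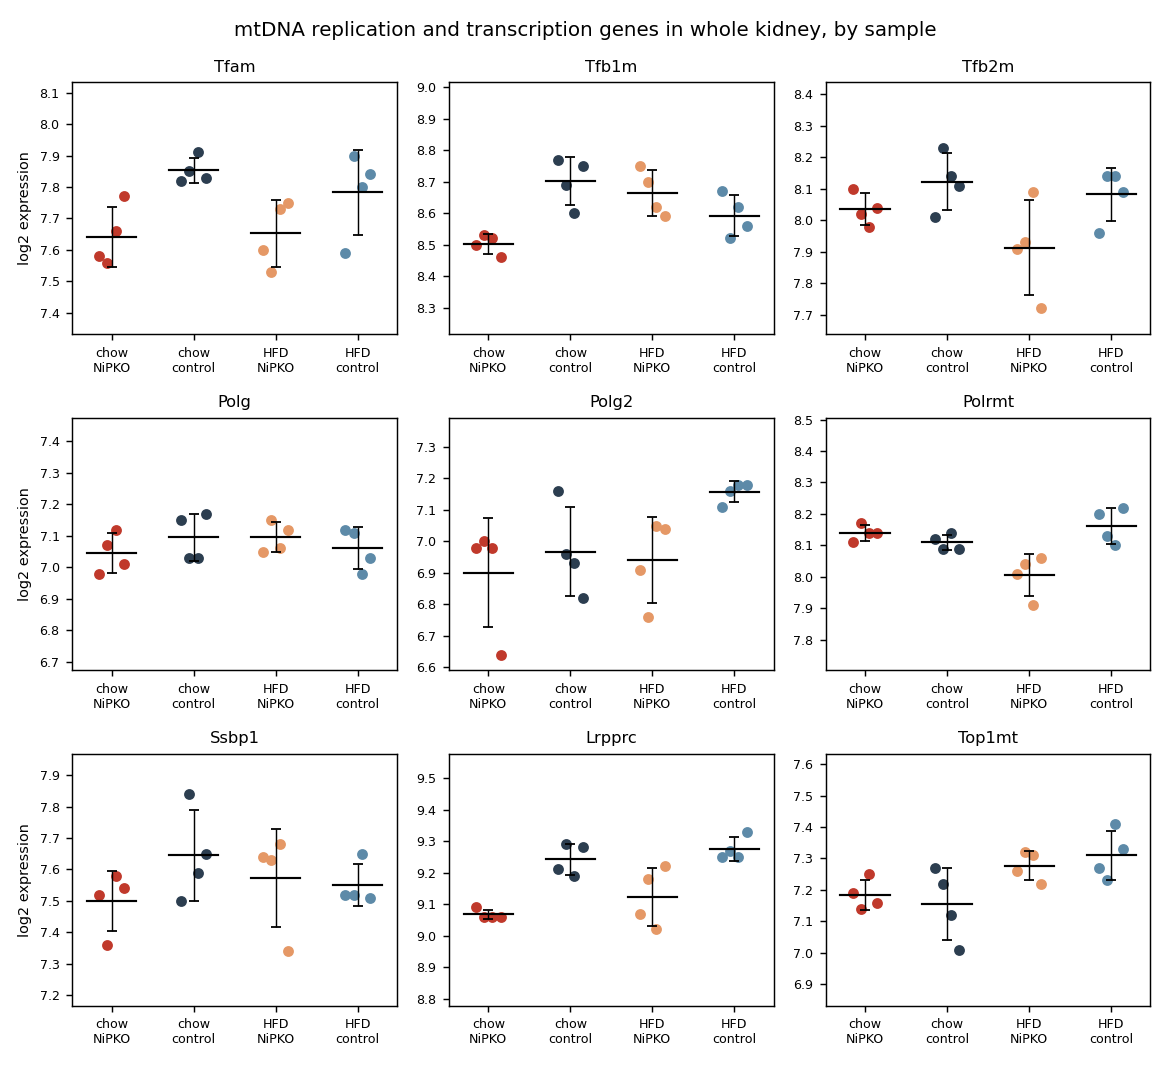
Log2 expression of the 9 genes in each of the 16 samples, 1 panel a gene, with the groups along the horizontal axis, points for samples, long bars for group means and error bars for the SD (n = 4 each); each vertical axis has its own range. Lrpprc lay lower in all NiPKO samples than in all control samples of the same diet, and Tfb1m had its lowest mean, 8.5, in chow-fed NiPKO kidney.

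Lrpprc (probe set 17347751, chr17:84705247-84790786 on GRCm38.p6) encodes the leucine-rich pentatricopeptide repeat protein that stabilises mitochondrial mRNAs and keeps them polyadenylated. It read 9.09, 9.06, 9.06 and 9.06 in chow-fed NiPKO kidney, against 9.21, 9.29, 9.19 and 9.28 in chow-fed control kidney. On HFD its values were 9.07, 9.18, 9.02 and 9.22 in NiPKO kidney, against 9.25, 9.27, 9.25 and 9.33 in control kidney. Within each diet every NiPKO sample lay below every control sample, and on HFD the gap between the groups was narrow. The log2 fold change was -0.17 on chow (SE 0.05, 95% interval -0.28 to -0.06, adjusted p = 0.15 from limma) and -0.15 on HFD (SE 0.05, -0.27 to -0.04, adjusted p = 0.26). Averaged over the diets it was -0.16 (SE 0.04, -0.24 to -0.08, adjusted p = 0.024), where 2.68% of all genes passed. This call rested on small margins: the adjusted p was 0.058 without chow control replicate 2, 0.051 without chow NiPKO replicate 2, 0.05 without HFD control replicate 4, 0.056 without HFD NiPKO replicate 1 and 0.051 without HFD NiPKO replicate 3, each just over the threshold, with log2 fold changes between -0.16 and -0.15.

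Tfam (probe set 17241765, chr10:71225468-71238328), the packaging protein and transcription factor of mtDNA, read 7.58, 7.56, 7.66 and 7.77 in chow-fed NiPKO kidney, against 7.82, 7.85, 7.91 and 7.83 in chow-fed control kidney. All 4 chow-fed NiPKO samples lay below all 4 controls. On HFD it read 7.6, 7.53, 7.73 and 7.75 in NiPKO kidney, against 7.59, 7.9, 7.8 and 7.84 in control kidney, where control replicate 1 lay among the NiPKO samples. The log2 fold change was -0.21 on chow (SE 0.07, -0.37 to -0.06, adjusted p = 0.21 from limma) and -0.13 on HFD (SE 0.07, -0.28 to 0.03, adjusted p = 0.57). Averaged over diets it was -0.17 (SE 0.05, -0.28 to -0.06, adjusted p = 0.11), of the same size as the difference of Lrpprc but with a larger spread between samples, 0.1 against 0.06 as the pooled SD on the log2 scale. Without HFD control replicate 1 this became -0.2 with an adjusted p of 0.031. With any other sample left out the adjusted p stayed over the threshold, between 0.075 and 0.21.

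Among the TFB proteins, which share descent from bacterial rRNA dimethylases, Tfb1m (probe set 17340449, chr17:3519250-3557796) encodes the methyltransferase of the small mitochondrial ribosomal RNA. It read 8.5, 8.53, 8.52 and 8.46 in chow-fed NiPKO kidney, against 8.77, 8.69, 8.6 and 8.75 in chow-fed control kidney, with no overlap. On HFD the values were 8.75, 8.7, 8.62 and 8.59 in NiPKO kidney, against 8.67, 8.52, 8.62 and 8.56 in control kidney, and these overlapped. The log2 fold change was -0.2 on chow (SE 0.06, -0.32 to -0.08, adjusted p = 0.11 from limma) and 0.07 on HFD (SE 0.06, -0.04 to 0.19, adjusted p = 0.69). The test of the difference between the diets, the interaction, gave 0.27 (SE 0.08, 0.11 to 0.44), with an unadjusted p of 0.0033 and an adjusted p of 0.48. The study set its own thresholds for the array, a fold change over 1.2 at an unadjusted p under 0.05, for differences between 2 groups. When they were applied here to the interaction, which the study did not do, Tfb1m passed them at 1.21-fold, as did 5.74% of all genes. No gene of the 22180 passed after adjustment in the interaction (0% of all genes). Where 8.24% of all genes had an unadjusted p under 0.05 in the interaction, 2 of the 9 members did, Tfb1m and Polrmt, in opposite directions.

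Polrmt (probe set 17242653, chr10:79736125-79746604), the mitochondrial RNA polymerase, gave 8.11, 8.17, 8.14 and 8.14 in chow-fed NiPKO kidney, against 8.12, 8.09, 8.14 and 8.09 in chow-fed control kidney. On HFD it gave 8.01, 8.04, 7.91 and 8.06 in NiPKO kidney, against 8.2, 8.13, 8.1 and 8.22 in control kidney. The chow-fed groups overlapped, whereas the HFD-fed NiPKO samples all lay below the samples of every other group. The genotype difference was 0.03 on chow (SE 0.05, -0.08 to 0.13, adjusted p = 0.87 from limma) and -0.15 on HFD (SE 0.05, -0.26 to -0.05, adjusted p = 0.22), and the interaction was -0.18 (SE 0.07, -0.33 to -0.03, unadjusted p = 0.019, adjusted p = 0.54).

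Tfb2m (chr1:179528052-179546305), the promoter-melting partner of POLRMT, had 3 probe sets, and they did not read alike. The brightest, 17280923, read 8.1, 8.02, 7.98 and 8.04 in chow-fed NiPKO kidney, against 8.01, 8.23, 8.14 and 8.11 in chow-fed control kidney, and 7.91, 7.93, 8.09 and 7.72 in HFD-fed NiPKO kidney, against 7.96, 8.14, 8.14 and 8.09 in HFD-fed control kidney. Its groups overlapped on both diets, with log2 fold changes of -0.09 on chow (SE 0.07, adjusted p = 0.69 from limma) and -0.17 on HFD (SE 0.07, -0.33 to -0.01, adjusted p = 0.42). The platform numbers its probe sets along the genome, and the 30 named probe sets nearest in number to 17280923 all lay on chromosome 12, whereas those around 17230331 all lay on chromosome 1, where the gene is. Probe set 17230331 read 5.92, 5.71, 5.75 and 5.84 in chow-fed NiPKO kidney, against 5.88, 6.33, 6.23 and 6.21 in chow-fed control kidney. On HFD it read 5.99, 6.06, 5.47 and 6.18 in NiPKO kidney, against 6.02, 5.9, 6.2 and 6.19 in control kidney. In 17230331 the difference was -0.36 on chow (SE 0.13, -0.63 to -0.08, unadjusted p = 0.014, adjusted p = 0.24), a 1.28-fold lower mean, and -0.15 on HFD (SE 0.13, adjusted p = 0.74). The 1 chow control sample at 5.88 lay among the NiPKO samples. The third probe set, 17275303, also numbered among genes of chromosome 12, had -0.25 on chow (adjusted p = 0.32) and 0.06 on HFD (adjusted p = 0.89), where p-values were adjusted over all 23521 probe sets. Which transcript the probe sets numbered outside chromosome 1 detect was not analysed here, so the Tfb2m values of the brightest probe set are uncertain.

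**Figure D2:**
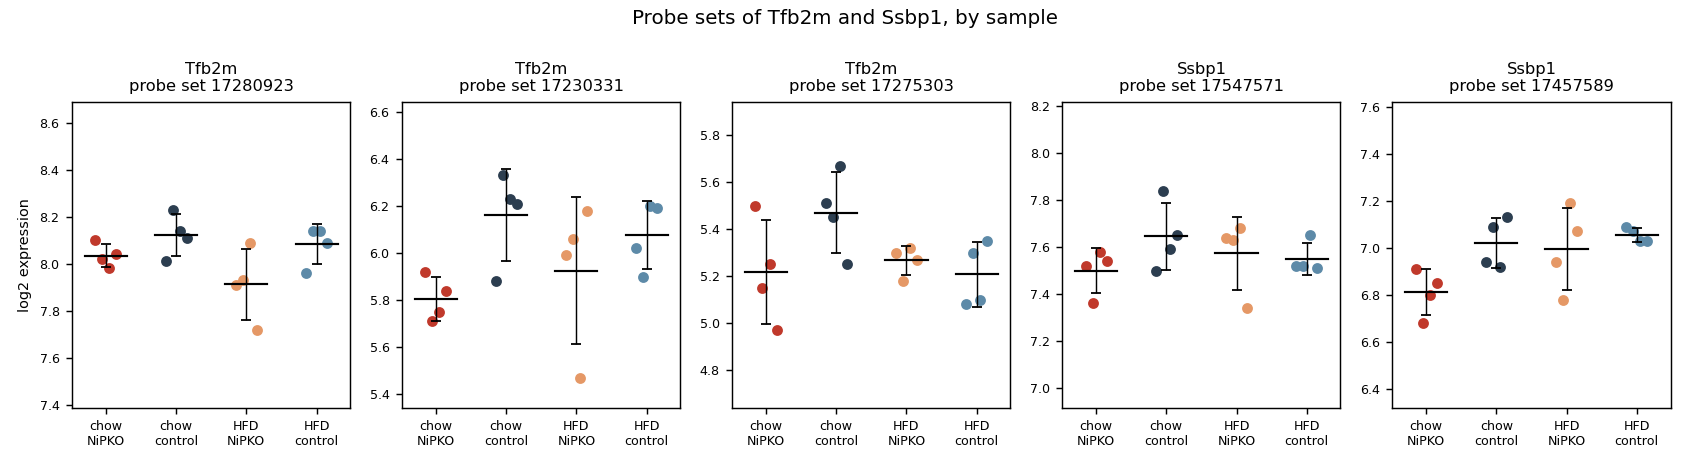
Log2 expression of every probe set of Tfb2m (3) and Ssbp1 (2) in each of the 16 samples, with the groups along the horizontal axis, long bars for group means and error bars for the SD (n = 4 each); each vertical axis has its own range. Probe sets 17230331 and 17457589, numbered among genes of the same chromosome as the gene, were lower on average in chow-fed NiPKO than in chow-fed control kidney, by 0.36 and 0.21.

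Of the replication genes, Polg (probe set 17492340, chr7:79446231-79467911), the catalytic subunit of the mtDNA polymerase, moved least, with a range of 0.19 on the log2 scale over all 16 samples. Its group means were 7.05 in chow-fed NiPKO and 7.09 in chow-fed control kidney, and 7.1 in HFD-fed NiPKO and 7.06 in HFD-fed control kidney. The intervals of the genotype difference were -0.17 to 0.07 on chow and -0.08 to 0.16 on HFD, which bounds any difference but does not show that the groups are alike. Polg2 (probe set 17270962, chr11:106768204-106779537), the processivity subunit, read 6.98, 7, 6.98 and 6.64 in chow-fed NiPKO kidney, against 7.16, 6.96, 6.93 and 6.82 in chow-fed control kidney, and these overlapped. On HFD it read 6.91, 6.76, 7.05 and 7.04 in NiPKO kidney, against 7.11, 7.16, 7.18 and 7.18 in control kidney. The HFD-fed groups did not overlap, at a log2 fold change of -0.22 (SE 0.09, -0.41 to -0.03, unadjusted p = 0.029, adjusted p = 0.38 from limma), compared to -0.07 on chow (SE 0.09, adjusted p = 0.83). The interaction was -0.15 (SE 0.13, -0.42 to 0.12, adjusted p = 0.78).

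Ssbp1 (chr6:40471414-40481823), the protein that coats single-stranded mtDNA at the replication fork, had 2 probe sets. The brighter one, 17547571, read 7.52, 7.36, 7.58 and 7.54 in chow-fed NiPKO kidney, against 7.5, 7.84, 7.59 and 7.65 in chow-fed control kidney, and 7.64, 7.63, 7.68 and 7.34 in HFD-fed NiPKO kidney, against 7.52, 7.52, 7.65 and 7.51 in HFD-fed control kidney. Both pairs of groups overlapped, with -0.14 on chow (SE 0.08, -0.32 to 0.03, adjusted p = 0.52 from limma) and 0.03 on HFD (SE 0.08, adjusted p = 0.95). None of the 30 named probe sets nearest to it in number lay on chromosome 6. The most common chromosome among them, 10, held only 11, so the numbering does not place this probe set. Which transcript it detects was not analysed here, so its values are uncertain. The other probe set, 17457589, whose 30 nearest neighbours all lay on chromosome 6, read 6.91, 6.68, 6.8 and 6.85 in chow-fed NiPKO kidney, against 6.94, 7.09, 6.92 and 7.13 in chow-fed control kidney. These chow-fed groups did not overlap, though the nearest samples were at 6.91 and 6.92, with a difference of -0.21 (SE 0.08, -0.38 to -0.04, unadjusted p = 0.017, adjusted p = 0.26). On HFD the same probe set read 6.94, 6.78, 7.19 and 7.07 in NiPKO kidney, against 7.09, 7.07, 7.03 and 7.03 in control kidney, a difference of -0.06 (SE 0.08, adjusted p = 0.84).

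Top1mt (probe set 17318143, chr15:75657033-75678800), the topoisomerase that relieves supercoils in mtDNA, had some of the smallest genotype differences of the 9 genes. It read 7.19, 7.14, 7.25 and 7.16 in chow-fed NiPKO kidney, against 7.27, 7.22, 7.12 and 7.01 in chow-fed control kidney, and the chow-fed groups overlapped. On HFD the values were 7.26, 7.32, 7.31 and 7.22 in NiPKO kidney, against 7.27, 7.23, 7.41 and 7.33 in control kidney. Genotype differences were 0.03 on chow (-0.1 to 0.16) and -0.03 on HFD (-0.16 to 0.1), both with an SE of 0.06.

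**Figure D3:**
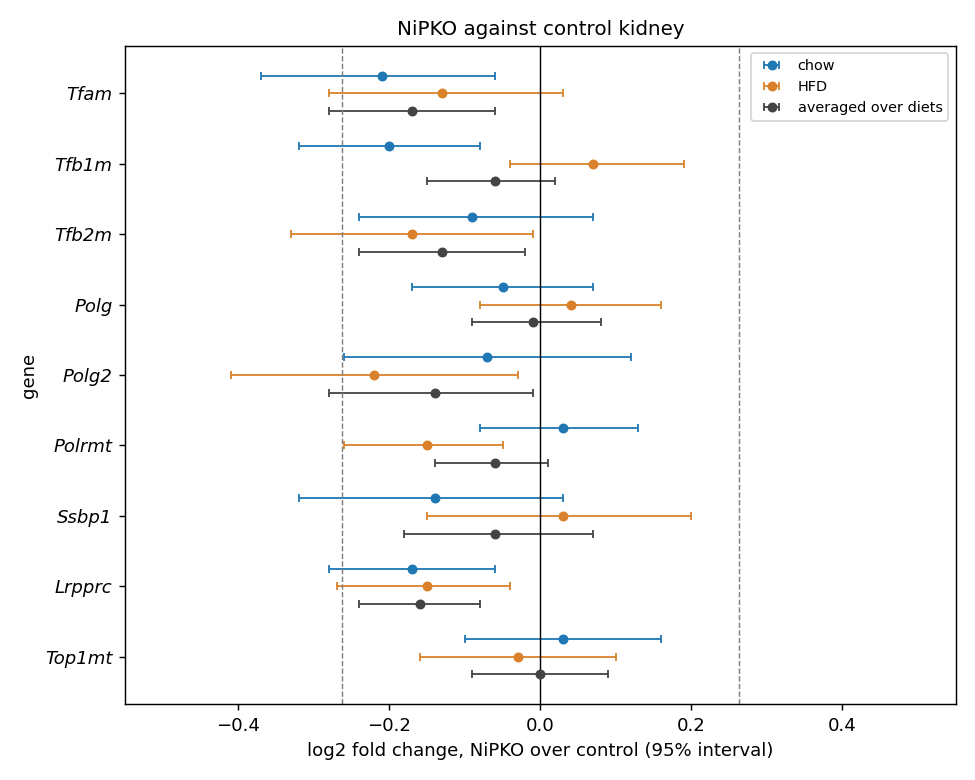
Log2 fold change of NiPKO over control kidney for each of the 9 genes, on chow, on HFD and averaged over both diets, with 95% intervals from limma; the dashed lines mark a 1.2-fold difference either way. Of the 3 estimates for a gene, all 3 intervals lay below 0 for Lrpprc alone.

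Counted together by their brightest probe sets, 7 of the 9 genes had a negative log2 fold change between NiPKO and control kidney on chow, against 47.4% of all genes, and 6 of 9 on HFD, against 49.4%, with medians of -0.088 and -0.128 on the log2 scale, compared to medians of 0.007 and 0.002 over all genes. After adjustment, limma called 0 of 9 on chow, where 1.28% of all genes passed, and 0 of 9 on HFD, where 0.825% passed. An unadjusted p under 0.05 was reached by 3 of 9 on chow (Tfam, Tfb1m and Lrpprc) and by 4 of 9 on HFD (Tfb2m, Polg2, Polrmt and Lrpprc), all of them lower in NiPKO kidney, where 6.53% of all genes were so on chow and 5.26% on HFD. Every NiPKO sample lay below every control sample for Tfam, Tfb1m and Lrpprc on chow, as for 4.15% of all genes, and for Polg2, Polrmt and Lrpprc on HFD, as for 3.38%. With 9 genes these counts are a description, and only Lrpprc was in both sets. By these probe sets none passed the thresholds of the study on chow, where 4.42% of all genes did, or on HFD, where 3.72% did. The largest fold change between group means was 1.16-fold on each diet by the brightest probe sets, and their intervals reached at most 1.29-fold on chow and 1.33-fold on HFD. Tfb2m by probe set 17230331 went beyond these bounds, with an interval of -0.63 to -0.08 on chow and -0.43 to 0.13 on HFD on the log2 scale. The lowest bounds by the brightest probe sets were -0.37 and -0.41. With the probe sets of Tfb2m and Ssbp1 that are numbered among genes of their own chromosome in their place, a choice made after seeing the data, Tfb2m passed the thresholds of the study on chow at 1.28-fold, 5 of 9 genes had an unadjusted p under 0.05 on chow and 3 of 9 on HFD, all lower in NiPKO kidney, and none passed after adjustment on either diet. The chow median was then -0.173, and it was also -0.173 with the mean of the probe sets of a gene and -0.055 with quantile normalization.

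Beside these values, the summed signal of 5 endothelial markers was 11.63 to 11.71 in chow-fed NiPKO and 11.69 to 11.82 in chow-fed control kidney, and 11.76 to 11.85 in HFD-fed NiPKO and 11.79 to 11.93 in HFD-fed control kidney, as log2 of the sum. All 5 had a negative genotype difference on both diets, and none passed after adjustment. The 5 adipocyte markers summed to 7.87 to 8.39 in HFD-fed NiPKO kidney, against 7.35 to 8.01 in HFD-fed control kidney. None of these 5 had a negative genotype difference on HFD (median log2 fold change 0.349), where 49.4% of all genes did, and 4 did on chow. Lep and Cidec, at 0.53 and 0.54 on HFD, passed the study's thresholds, as did 3.72% of all genes. The 12 tubule markers, which include Slc34a1, Umod and Aqp2, summed to 15.38 to 15.44 in NiPKO and 15.33 to 15.42 in control kidney on HFD, and to 15.39 to 15.44 in NiPKO and 15.39 to 15.46 in control kidney on chow. Bright markers such as Slc34a1 and Umod weigh most in this sum, and dimmer ones such as Aqp2 weigh little. Summed signals of leukocyte, podocyte, adrenal cortex and striated muscle markers overlapped between NiPKO and control kidney on each diet, and no marker of any of the 7 lists passed after adjustment on chow or on HFD. None of the 7 leukocyte markers had a negative genotype difference on HFD or averaged over diets (medians 0.145 and 0.142), and 1 did on chow. The study's thresholds were also passed by Itgam on chow, at 0.29, and by Atp6v1g3, at 0.31 on chow and 0.3 on HFD. On chow 4.42% of all genes passed them. Averaged over diets, where Lrpprc passed, the tubule marker Atp6v1g3, a proton pump subunit, was called at 0.31 (adjusted p = 0.033 from limma), and 3 of the 5 endothelial markers had an unadjusted p under 0.05 and were lower, as were 6.79% of all genes. In that average 4 of the 12 tubule markers had a negative difference, among them Calb1 at -0.17 (adjusted p = 0.3 from limma). Slc5a2 had 0.21 (adjusted p = 0.083). The part of other cell types in the differences of the 9 genes was not tested.

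With HFD feeding, no member passed in limma after adjustment in NiPKO kidney, where 0.261% of all genes did, nor in control kidney, where 0.564% did. In NiPKO kidney 2 of 9 had an unadjusted p under 0.05, against 13.4% of all genes, and the same 2 did not overlap between the diets, against 8.24% of all genes. Tfb1m was higher on HFD, with a log2 fold change of 0.16 (SE 0.06, 0.04 to 0.28, adjusted p = 0.21), and Polrmt was lower, at -0.13 (SE 0.05, -0.24 to -0.03, adjusted p = 0.24). In control kidney 2 of 9 had an unadjusted p under 0.05, against 13.1% of all genes. These were Top1mt at 0.15 (SE 0.06, 0.02 to 0.28, adjusted p = 0.3) and Polg2 at 0.19 (SE 0.09, 0 to 0.38, adjusted p = 0.37), and no member was free of overlap, against 7.12% of all genes. Averaged over genotypes, Top1mt had 0.12 (SE 0.04, 0.03 to 0.22, adjusted p = 0.15), the smallest p of the 9 for diet, and 3.14% of all genes but none of the 9 passed. The genotype and diet comparisons share groups, so a low group enters more than 1 of them. The 4 chow-fed NiPKO samples enter the Tfb1m values of both, and the 4 HFD-fed NiPKO samples those of Polrmt.

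**Figure D4:**
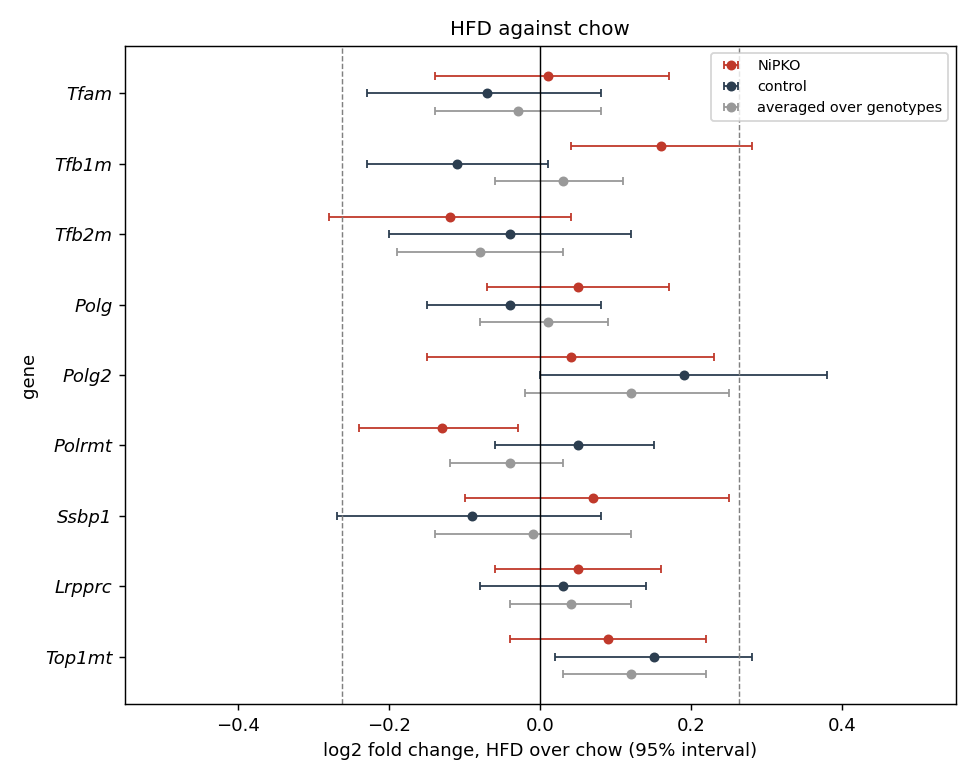
Log2 fold change of HFD over chow for each of the 9 genes, in NiPKO kidney, in control kidney and averaged over genotypes, with 95% intervals from limma; the dashed lines mark a 1.2-fold difference either way. Tfb1m lay above 0 and Polrmt below 0 in NiPKO kidney, and Polg2 and Top1mt above 0 in control kidney, with Polg2 reaching down to 0 after rounding.

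From sample to sample the 9 genes did not follow 1 common pattern. Over the 16 samples the 36 pairs of members had a median Pearson correlation of 0.1, and of -0.09 once the group means were taken out, with 13 of the 36 positive. After the group means were removed the range ran from -0.8 for Tfam with Tfb1m to 0.74 for Tfb2m with Ssbp1, both given by their brightest probe sets. Those of Tfb2m and Ssbp1 had none of their 30 nearest named probe sets on the chromosome of the gene. What they detect was not analysed, so correlations given here for Tfb2m and Ssbp1 are uncertain. The genes with the pattern most like Lrpprc over the 16 samples were Afg3l2, a protease of the inner mitochondrial membrane, and Timm23, a channel subunit of protein import, each with a correlation of 0.9, and Tmx2 with 0.89. Within groups these were 0.68, 0.55 and 0.66. For Tfam they were Etfa, which passes electrons from fatty acid oxidation to the respiratory chain, at 0.85, Pdha1, a subunit of pyruvate dehydrogenase, at 0.82 and Guk1, a guanylate kinase, at 0.82, with 0.76, 0.65 and 0.77 within groups. The closest patterns for the others were Rbm47 for Tfb1m at 0.83, Mindy2 for Tfb2m at 0.79, Ppm1l for Polrmt at 0.8, Susd6 for Polg at 0.76, Unc13b for Polg2 at 0.84, Tor1aip1 for Ssbp1 at 0.77 and Slfn2 for Top1mt at 0.85. All points share the arrays and their normalization, and a gene chosen as the closest of all genes has a high correlation by that choice.

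The wider machinery was read from lists of genes around the 9. Of 23 measured genes for mitochondrial RNA processing and decay, 6 fell and none rose in NiPKO kidney averaged over diets, with a median log2 fold change of -0.06, where 1.83% of all genes were called lower. Fastkd1, an RNA-binding protein of the FASTK family, fell most, at group means of 6.91 in NiPKO and 7.68 in control kidney on chow and 7.21 in NiPKO and 7.71 in control kidney on HFD, with log2 fold changes of -0.78 and -0.5 (adjusted p = 6.3e-06 and 0.0013 from limma). Fastk itself, which supports the mRNA of a complex I subunit, was at -0.36 on chow and -0.29 on HFD (adjusted p = 0.0012 and 0.01). Grsf1, which binds RNA in mitochondrial RNA granules, was at -0.26 averaged over diets (adjusted p = 0.0021), and Supv3l1, the helicase of mitochondrial RNA decay, at -0.18 (adjusted p = 0.0091). The protein partner of LRPPRC, encoded by Slirp, was not among the genes measured here.

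Of 16 genes of mitochondrial nucleotide supply, 4 fell and none rose averaged over diets, where 1.83% of all genes were called lower and 0.852% higher. They were 3 genes of succinyl-CoA ligase, Sucla2 at -0.22 (adjusted p = 0.0016 from limma), Suclg1 at -0.21 (0.01) and Suclg2 at -0.16 (0.043), and the adenine nucleotide carrier Slc25a4 at -0.33 (0.012). Succinyl-CoA ligase is an enzyme of the citrate cycle that also associates with nucleoside diphosphate kinase, and Slc25a4 exports ATP, so these members have their main known roles outside mtDNA copying. Between the diets, for HFD against chow averaged over genotypes, Abat, a transaminase, was lower at -0.31 (adjusted p = 0.01 from limma). Rrm1, the large subunit of ribonucleotide reductase, was higher on HFD at 0.26 (adjusted p = 0.038). In the same average over genotypes the tubule marker Calb1 was called lower on HFD than on chow, at -0.38 (adjusted p = 0.0086). There 1 marker each of podocytes (Podxl), endothelium (Tek), leukocytes (Cd79a) and adipocytes (Lep) was called higher on HFD, at 0.21, 0.25, 0.36 and 0.74. The part of these markers in the diet differences was not tested.

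All 7 genes of nucleoids and TFAM turnover had negative genotype differences averaged over diets, at a median of -0.13. Of all 22180 genes 10410 had a negative difference in that average, and 1.83% were called lower and 0.852% higher. Among the 7 only Hspa9, the mitochondrial chaperone, passed, at -0.13 (adjusted p = 0.043 from limma), and Lonp1, the protease that degrades TFAM, had -0.1 (adjusted p = 0.12). None of 7 elongation and termination genes passed, and the elongation factor Tefm had -0.15 (adjusted p = 0.19). Of 13 genes of the replisome and mtDNA repair none fell and 1 rose, the flap endonuclease Fen1, at 0.2 (SE 0.04, adjusted p = 0.022), a nuclear enzyme as well. The replicative helicase Twnk had -0.12 (adjusted p = 0.41) and the DNA ligase Lig3 0.13 (adjusted p = 0.098).

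Among 13 nuclear regulators of mitochondrial genes, Esrra, the gene for ERRα, fell by 0.21 on the log2 scale averaged over diets (adjusted p = 0.021), and besides Ppargc1a no other passed. Gabpa had -0.07 (adjusted p = 0.41). Of the transcripts that the 9 genes serve, 10 genes of mtDNA itself were measured. In 9 of them group means lay between 12.95 and 13.55, where the highest value of any probe set on any array was 13.8, which limits what a difference can show, and none passed. ND6, the complex I subunit encoded on the opposite strand to the other mRNAs, had group means of 5.49 in NiPKO and 5.98 in control kidney on chow and 5.6 in NiPKO and 5.81 in control kidney on HFD. Averaged over diets it fell by 0.35 on the log2 scale (SE 0.08, adjusted p = 0.028 from limma), and it passed on neither diet alone. ND6 was dim, near 5.94, the median of the gene means, far below the other mtDNA genes, and signal over background is unknown. In all, 12 of the 79 nuclear genes of these lists fell averaged over diets and 2, Fen1 and Ppargc1a, rose, against the 1.83% and 0.852% of all genes given above. On chow 5 fell and 1 rose, where 0.974% of all genes were called lower and 0.302% higher. On HFD 3 fell and 1 rose, where 0.595% were called lower and 0.23% higher. The 1 that rose was Ppargc1a on each diet, the targeted gene, whose probe set may be no check of the genotypes. In the interaction none passed in limma, and the 2 negative and 6 positive ones with an unadjusted p under 0.05 were a share close to the 8.24% of all genes.

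**Figure D5:**
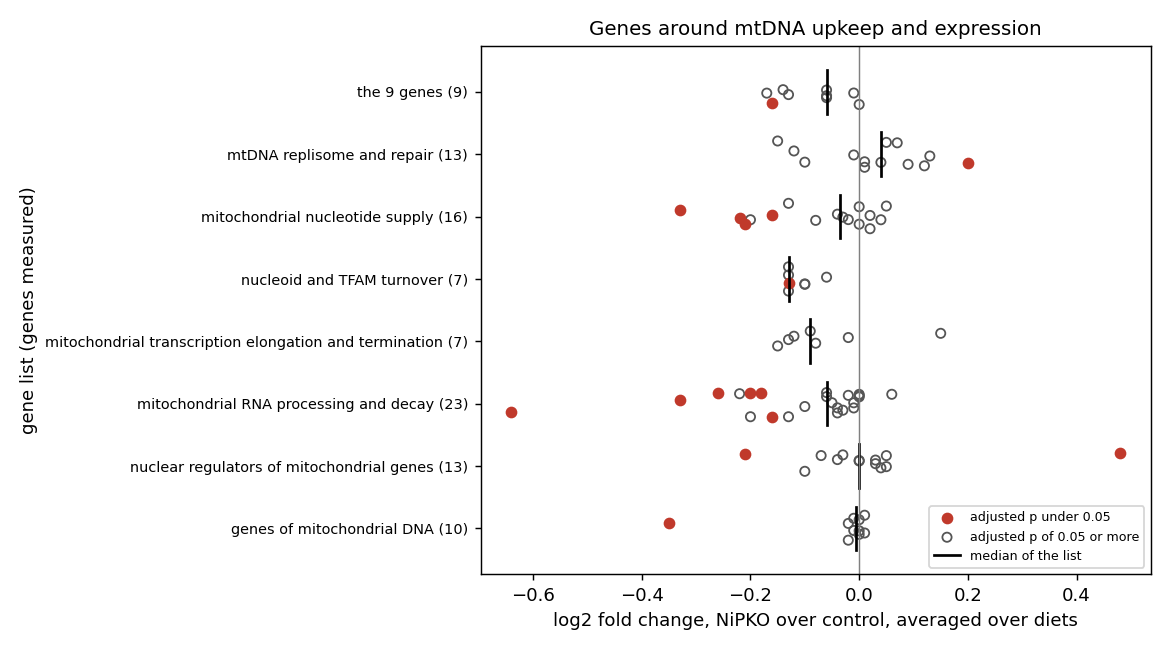
Log2 fold change of NiPKO over control kidney averaged over diets, 1 point a gene, for the 9 genes and for 7 lists around them, with the number measured in brackets; filled points have an adjusted p under 0.05 from limma and vertical bars are list medians. Filled points lay mostly among RNA processing and nucleotide supply genes, and the highest point is Ppargc1a.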

How the data were processed

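Whole-kidney total RNA was hybridised to 16 Affymetrix Mouse Gene arrays. The authors deposited normalized log2 expression for 41345 probe sets. Partek is named in the submitters' processing notes, with no version, and for background correction and normalization the sources used here give no method. That the values are log2 was read from their range, 2.07 to 13.8. Scanner intensities were not used, which leaves signal over background unknown, and precision is limited by the 4 arrays a group.

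The platform's annotation gave the gene names. Of the probe sets 23521 carry 1 gene symbol and were used, and 1820 carry several and 16004 none. A gene was represented by its brightest probe set, which gave 22180 genes with no filter on dim ones. Groups came from the sample labels. All 16 arrays entered 1 linear model of the 4 group means in limma 3.58.1 (lmFit, eBayes; R 4.3.3), and p-values were adjusted over all genes by Benjamini-Hochberg. A gene was called at an adjusted p under 0.05. Averages over diets or genotypes and the interaction were contrasts of the same fit. The fit was tested on simulated data.

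The 9 members and all lists were chosen with earlier results of these data known. Text names the members, Ppargc1a, in each list up to 4 genes with the smallest p for genotype and up to 2 for diet, both averaged, and per member up to 3 genes with the most similar pattern among the brighter genes, those whose mean exceeded 5.94, the median over genes. Correlations are descriptions. Alternatives were quantile normalization, centring on array medians, only the brighter genes, averaging the probe sets of a gene, the 2 groups alone, the Student test that the methods name, array weights, a robust prior with a mean-variance trend, the replicate number as a block, the study's thresholds, a fold change over 1.5 and leaving out each array. The probe set numbered among genes of the same chromosome, for Tfb2m and Ssbp1, was added after seeing the data. Promoter windows and coordinates are from RefSeq on GRCm38.p6, and a build for the deposited values is not stated.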

Additional observations from a re-analysis of the deposited data

Results flagged for a closer look

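Of 36 combinations of a gene and a group, 3 held a sample whose gap to its nearest neighbour took up more of the group's range than Dixon's critical value for 4 samples allows, a limit that chance passes in about 1 group of 20. Polg2 in chow-fed NiPKO replicate 4 was at 6.64, with the other samples between 6.98 and 7 and a gap of 0.959 of the range. Ssbp1, by its brightest probe set, was at 7.34 in HFD-fed NiPKO replicate 4, with the others between 7.63 and 7.68 (0.855 of the range). The same probe set was at 7.65 in HFD-fed control replicate 3, with the others between 7.51 and 7.52 (0.945 of the range).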

How the results depend on the processing

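Among the brighter genes alone, a filter that all 9 members passed, fewer p-values were adjusted: 1 member, Tfb1m, was then called between NiPKO and control kidney on chow (adjusted p = 0.039 from limma), and 2, Lrpprc and Tfam (0.048), averaged over diets, against 1 without that filter. Calls in the whole series rose with the filter too, from 283 to 436 on chow and from 595 to 849 averaged over diets. Leaving out each array in turn, 0 to 2 members were called averaged over diets, 0 without any 1 of the samples named beside Lrpprc and 2 without HFD control replicate 1. At the study's unadjusted thresholds, 0 members were called averaged over diets, 0 also at a fold change over 1.5, and 1, Tfb1m, in the interaction. With the own-chromosome probe sets of Tfb2m and Ssbp1, chosen after seeing the data, the members past the study's thresholds were 1 on chow, Tfb2m, 0 averaged over diets and 1, Tfb1m, in the interaction, and at an adjusted p under 0.05 that choice changed no call. No other alternative changed which members passed at an adjusted p under 0.05. Of 540 log2 fold changes of members under alternatives other than leaving out an array, 18 had the opposite sign to the reported value, and 37 of 1008 did with an array left out, and in none was a called value turned. With quantile normalization the median over the 9 genes was -0.014 for HFD against chow in NiPKO kidney, against 0.049 as deposited, and the genotype medians stayed negative under both scalings. Over all genes, calls on chow numbered 283, against 75 with the 2 groups alone, 47 with the Student test of the methods and 436 among the brighter genes, and those on HFD 183, against 43, 8 and 324, and 281 with a trend and robust prior. For HFD against chow they numbered 58 in NiPKO kidney, against 21, 0, 308 and 189 in the same order and 125 with array weights, and 125 in control kidney, against 14, 0, 272 and 216. Averaged over genotypes they were 697, against 1217 among the brighter genes.

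With the replicate number as a block, 0 members were called on each diet and 1 averaged over diets, as without it, and calls over all genes numbered 101 on HFD, 33 for diet in NiPKO kidney and 66 for diet in control kidney. Correlations of deviations between samples with the same number lay between -0.098 and 0.166 for the genotype pairs. For the diet pairs they lay between -0.08 and 0.137. These values showed no clear pairing by number, but low correlations cannot exclude one.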
